A study of Mus musculus with 17 samples.

Results

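Aminoacyl-tRNA synthetases are the enzymes that join each amino acid to its matching transfer RNA, the step that supplies charged tRNAs to the ribosome. Mammalian cells keep a cytosolic set, whose gene symbols end in "ars" or carry no final 2, and a mitochondrial set that serves the small protein synthesis machinery inside the organelle and whose symbols end in 2. Gars and Kars are exceptions, since each serves both compartments. Several cytosolic enzymes sit together in the multisynthetase complex, which is held by the scaffold proteins Aimp1, Aimp2 and Eef1e1. Many cytosolic synthetase genes are known targets of ATF4, the transcription factor that carries out the amino acid response, in which shortage of amino acids or other stress raises genes for amino acid supply and tRNA charging.

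The synthetase genes were taken by symbol from the protein-coding genes of the count table. The rule gave 38 of the 48795 genes, of which 20 were cytosolic and 17 mitochondrial. Gars and Kars, which serve both compartments, are counted among the 20 in every count, sum and ratio below. Tarsl2, a second threonyl-tRNA synthetase whose symbol ends in 2 without being a mitochondrial enzyme, was kept apart. By the known division of these enzymes by fold of the catalytic domain, 18 belonged to class I and 19 to class II, and Eprs, the fused glutamyl- and prolyl-tRNA synthetase, carries a domain of each class. The multisynthetase complex held 8 of the cytosolic enzymes, namely Dars, Eprs, Iars, Kars, Lars, Mars1, Qars and Rars.

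RNA from kidney cortices was sequenced in 17 libraries, each labelled as 1 mouse: 5 WT (wild type), 5 GCERAd (labelled ATF4 KO), 3 TRACK and 4 GCERAdT (labelled TRACK-ATF4 KO). GCERAd mice carried a Ggt1 promoter driving CreER, active in proximal tubule cells, and floxed Atf4 alleles (ATF4 fl/fl), and received tamoxifen on 2 consecutive days at 6 weeks of age. They were killed about a month later after a 16 h fast. TRACK is a transgenic mouse model of cancer of the kidney, and the labels describe neither it nor the GCERAdT cross further. Whether the WT and TRACK mice received tamoxifen or were fasted alike is not given in the sources used here. A cortex also holds cells in which the Cre is not active, so a change in a cortex can come from any of its cell types, and fewer cells of a type and less RNA per cell cannot be told apart. The extraction protocol speaks of 3 to 4 mice per cohort, fewer than the 5 libraries of WT and of GCERAd, so some of these may share a mouse. The labels do not tell which, each library is called a mouse here as labelled, and p-values are too small if some are repeats. Library totals ran from 53688512 to 71364561 counts, and the lowest count of any synthetase gene in any mouse was 214.

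Several features of the libraries move with the groups. Xist lay between 147 and 422 CPM (CPM is a count scaled to the library total, here with TMM factors) in the 5 WT mice and at most at 6.06 CPM in the other 12, while the Y-linked gene Ddx3y had no count in WT and lay between 49.7 and 79.9 CPM in the others. The WT mice thus showed the female pattern and all other mice the male pattern, so that sex and group cannot be told apart in GCERAd against WT or in TRACK against WT. Counts on processed pseudogenes, as a percentage of a library's counts, took 2 ranges, 0.0320% to 0.0380% in 8 libraries and 0.0574% to 0.0784% in 9, and the upper range held 1 WT, 3 GCERAd, all 3 TRACK and 2 GCERAdT mice. GCERAd mice 4 and 5 stood apart from GCERAd mice 1 to 3, with values given below. The summed level of 8 proximal tubule markers was 9658 to 11666 CPM in WT, 11377 to 14459 in GCERAd, 7320 to 8717 in TRACK and 7288 to 8383 in GCERAdT, and that of 4 tubule injury markers was 8.25 to 11.9, 11.3 to 19.6, 35.3 to 71.8 and 42.2 to 51.0 CPM, respectively. The 5 principal cell markers summed to 769 to 938 CPM in WT and to at most 521 CPM in every other group, and those of the distal convoluted tubule and intercalated cells were also lower outside WT. The 4 podocyte markers summed to 472 to 481 CPM in TRACK and to at most 403 CPM in the other groups. The part of these differences in the results below was not tested except where a value is given.

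Atf4 itself was measured at 79.6, 74.8, 81.5, 86.9 and 101 CPM in WT and at 73.0, 55.8, 57.4, 61.8 and 75.1 CPM in GCERAd, which overlapped at the edges (log2 fold change −0.38 ± 0.11 SE, adjusted p = 0.0218, edgeR). In TRACK it was 93.4, 79.9 and 77.6 CPM and in GCERAdT 80.6, 94.2, 94.9 and 104 CPM (log2 fold change 0.17 ± 0.11, adjusted p = 0.367, edgeR). The count of this gene was therefore not lower in the mice labelled GCERAdT than in TRACK, and every direction drawn from those 4 mice rests on their label. The counts were per gene, do not separate the floxed exons, and include cells without Cre.

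All 38 synthetase genes had a mean of at least 1 FPKM (counts scaled to library total and exon length) in each of the 4 groups. On this per-length scale the cytosolic genes had a median of 9.29 FPKM in WT (1.89 to 23.0) and the mitochondrial genes 3.63 FPKM (1.13 to 55.6). Nars, Sars and Gars, which charge the tRNAs for asparagine, serine and glycine, were the highest cytosolic genes at 23.0 ± 1.70, 17.6 ± 1.08 and 17.3 ± 1.05 FPKM (SD, n = 5), and Sars and Gars did not differ beyond their spread from each other, nor Gars from Hars, Kars and Dars, which followed at 16.7, 16.1 and 16.0 FPKM. Cars, for cysteine, had the lowest level of the cytosolic set at 1.89 ± 0.163 FPKM, followed by Eprs at 3.62 ± 0.131 and Farsa at 3.65 ± 0.107, which did not differ beyond their spread. Among mitochondrial genes Lars2 was highest at 55.6 ± 28.6 FPKM and Iars2 came next at 14.4 ± 0.462 FPKM. Mars2 and Ears2, for methionine and glutamate, were lowest at 1.13 ± 0.0643 and 1.80 ± 0.164 FPKM.

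Genes that ATF4 binds often hold the amino acid response element, whose core reads TGATGNAA and is bound by dimers of ATF4 with C/EBP proteins. The RefSeq promoter sequences (build GRCm38.p6, 250 bases before and 50 after the start) held 28 of the 38 synthetase genes. Searched on both strands, TGATGNAA was found before the start of 3 of them, and with the 50 bases after the start in 5, Aars, Gars, Tars, Iars and Yars. All 5 are among the 13 cytosolic genes with a promoter sequence, and none of the 14 mitochondrial genes with one had a match. Of all 27025 genes with a promoter sequence, 3.91% held the motif before the start and 4.51% in the whole window. The stricter TGATGCAA was found in 4 of the 5, against 1.03% of all genes. A match describes letters and does not show binding. The 30 bases around the match nearest the start of each gene are shown on the gene's strand with the match in capitals. Aars, Gars, Tars, Iars and Yars are shown because their changes in GCERAd and in TRACK against WT are given below. All but Yars carry the motif on the opposite strand.
Aars at chr8:111033840-111033869, plus strand, match from base 10: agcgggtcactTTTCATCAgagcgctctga
Gars at chr6:55037960-55037989, plus strand, match from base −30: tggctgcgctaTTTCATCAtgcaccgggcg
Tars at chr15:11399655-11399684, minus strand, match from base −15: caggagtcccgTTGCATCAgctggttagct
Iars at chr13:49682126-49682155, plus strand, match from base 8: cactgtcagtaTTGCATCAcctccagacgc
Yars at chr4:129189895-129189924, plus strand, match from base 4: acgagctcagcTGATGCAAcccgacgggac
In the GENCODE M21 annotation the matches shown for Gars and Tars lay in no exon, that for Aars lay in an untranslated exon of another Aars transcript, that for Iars in the 5′ UTR, and that for Yars across the end of the 5′ UTR and the first coding bases.

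**Figure D1:**
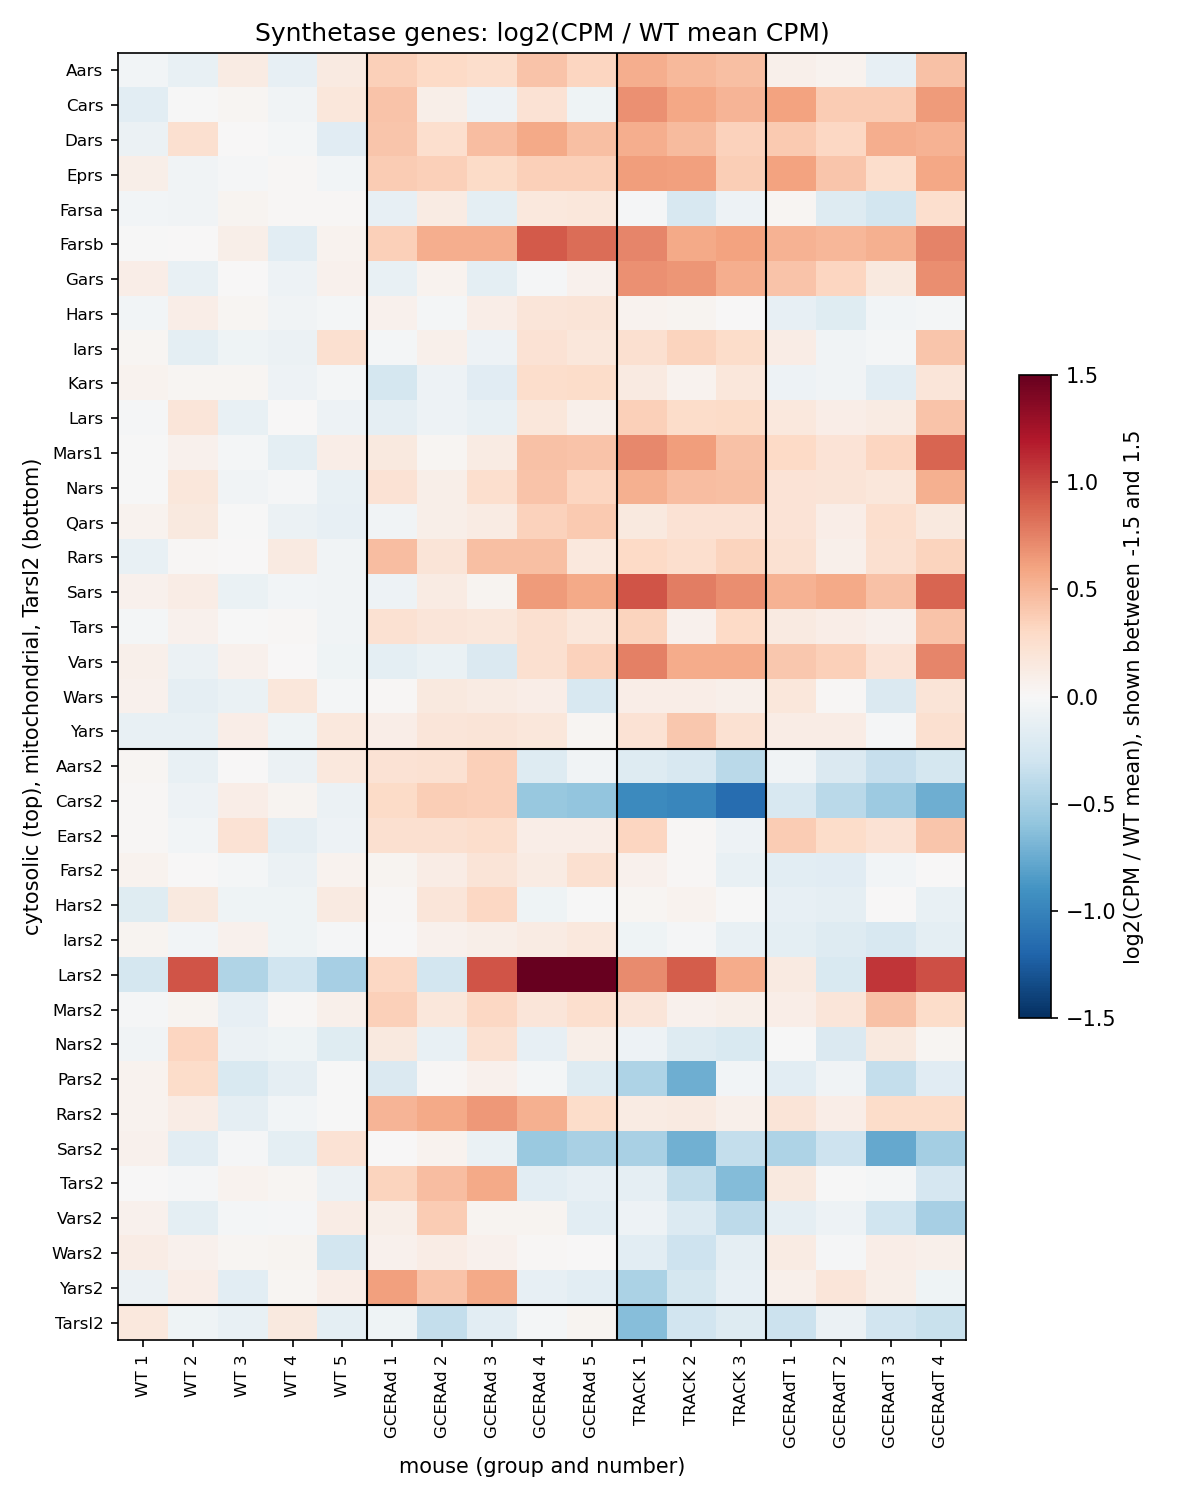
Heat map of 37 synthetase genes (rows, cytosolic at the top, then mitochondrial, then Tarsl2) in the 17 mice (columns by group), coloured by log2 of the CPM over the WT mean CPM. Sars, Gars, Vars and Mars1 are red in the 3 TRACK mice and in GCERAdT mouse 4, Cars2 is dark blue in TRACK, and Lars2 is darkest in GCERAd mice 4 and 5.

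The comparison of GCERAd with WT asked what followed loss of Atf4 in the proximal tubules. Of the 20 cytosolic genes, 7 rose by edgeR's quasi-likelihood test (adjusted p of at most 0.05 over 11581 genes), against 14.1% of all genes tested that rose and 13.5% that fell. Of the 17 mitochondrial genes, 3 rose, and the remaining synthetase genes were not called. As a number, 3 of 17 is close to the 14.1% of all genes tested that rose. The median log2 fold change was 0.17 over the cytosolic and 0.14 over the mitochondrial genes, beside 0.00 over all genes tested.

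Farsb, the beta subunit of phenylalanyl-tRNA synthetase, rose most among the called genes. Its level was 28.4, 28.7, 30.3, 25.7 and 29.6 CPM in WT and 36.6, 41.7, 41.5, 53.9 and 51.1 CPM in GCERAd (log2 fold change 0.67 ± 0.10 SE, adjusted p = 0.00070, edgeR). All GCERAd mice lay above all WT mice, and GCERAd mice 4 and 5 were the highest. Farsa, the alpha subunit of the same enzyme, was not called, with log2 fold changes of 0.05 ± 0.08 here and −0.11 ± 0.08 in TRACK against WT. Aars, the alanyl-tRNA synthetase, was 64.1, 60.9, 71.7, 60.4 and 72.0 CPM in WT and 84.6, 81.2, 79.1, 88.3 and 82.6 CPM in GCERAd, again without overlap (log2 fold change 0.35 ± 0.07, adjusted p = 0.00331). In the annotation Aars shares 1326 exon bases with Exosc6 on the same strand, so reads there cannot be assigned to one of them. Eprs was 69.5, 63.2, 64.8, 66.6 and 64.0 CPM in WT and lay between 80.2 and 85.7 CPM in all 5 GCERAd mice (0.36 ± 0.05). The other called cytosolic genes were Dars for aspartate (0.45 ± 0.09), Rars for arginine (0.36 ± 0.08), Nars for asparagine (0.28 ± 0.08) and Tars for threonine (0.21 ± 0.05). Nars was the only one of the 7 whose groups overlapped. The share without overlap was not computed over all genes, so this count is not a result about synthetases. Nars and Tars were no longer called when every gene with a count was tested. Gars, with a motif match before its start, stood at −0.02 ± 0.07 and ranged from 49.9 to 57.9 CPM in WT and from 48.9 to 56.5 CPM in GCERAd. Iars (0.09 ± 0.09) and Yars (0.15 ± 0.07), which also have a match, were not called. Of the genes with a match, Aars and Tars were thus the ones called here. Kars, the lysyl-tRNA synthetase of the same complex as Dars, Eprs and Rars, stood at 0.04 ± 0.11.

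The mitochondrial genes that rose included Rars2 for arginine and Mars2 for methionine. Rars2 was 31.3, 32.7, 27.6, 29.4 and 30.1 CPM in WT and 43.2, 44.7, 47.5, 43.7 and 36.7 CPM in GCERAd (0.53 ± 0.08, adjusted p = 0.000557, edgeR). Every GCERAd mouse lay above every WT mouse, with mouse 5 the lowest of them. For arginine the cytosolic and the mitochondrial enzyme thus rose together. Mars2 moved less, by 0.27 ± 0.07, and was lost with library totals as the scale. Without GCERAd mouse 1 the count of mitochondrial genes called was 5.

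GCERAd mice 4 and 5 differed from mice 1 to 3 in other mitochondrial genes. Cars2, for cysteine, was 22.3, 23.6 and 23.4 CPM in GCERAd mice 1 to 3 and 12.4 and 12.1 CPM in mice 4 and 5, beside 17.3 to 19.6 CPM in WT. Yars2, for tyrosine, was 25.5, 22.5 and 24.7 CPM in mice 1 to 3 and 15.4 and 14.9 CPM in mice 4 and 5, beside 15.0 to 17.9 CPM in WT. Over all 17 mitochondrial genes, mice 4 and 5 lay below mice 1 to 3 for 8 and above them for 2, and over the 20 cytosolic genes above them for 11, below for none and in neither order for 9. Sars was among the 11, at 86.1, 98.4 and 93.3 CPM in mice 1 to 3 and at 141 and 134 CPM in mice 4 and 5, beside 84.4 to 97.9 CPM in WT. The same counts over all genes were not made, so the split is not known to be particular to synthetases. Beyond the synthetases, the median chi-square over sampling was 37.2 to 54.6 between mice 1 to 3 and mice 4 and 5. It was 16.1 to 23.7 among mice 1 to 3 and 10.9 for mice 4 with 5. The 4 proliferation markers summed to 5.07, 5.18 and 5.24 CPM in mice 1 to 3 and to 2.14 and 2.08 CPM in mice 4 and 5, and their part in this split was not tested. Without mice 4 and 5, an alternative chosen after seeing the data, 7 mitochondrial genes were called higher, with Aars2, Cars2, Tars2 and Yars2 added (Yars2 0.55 ± 0.09), and 6 cytosolic genes.

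**Figure D2:**
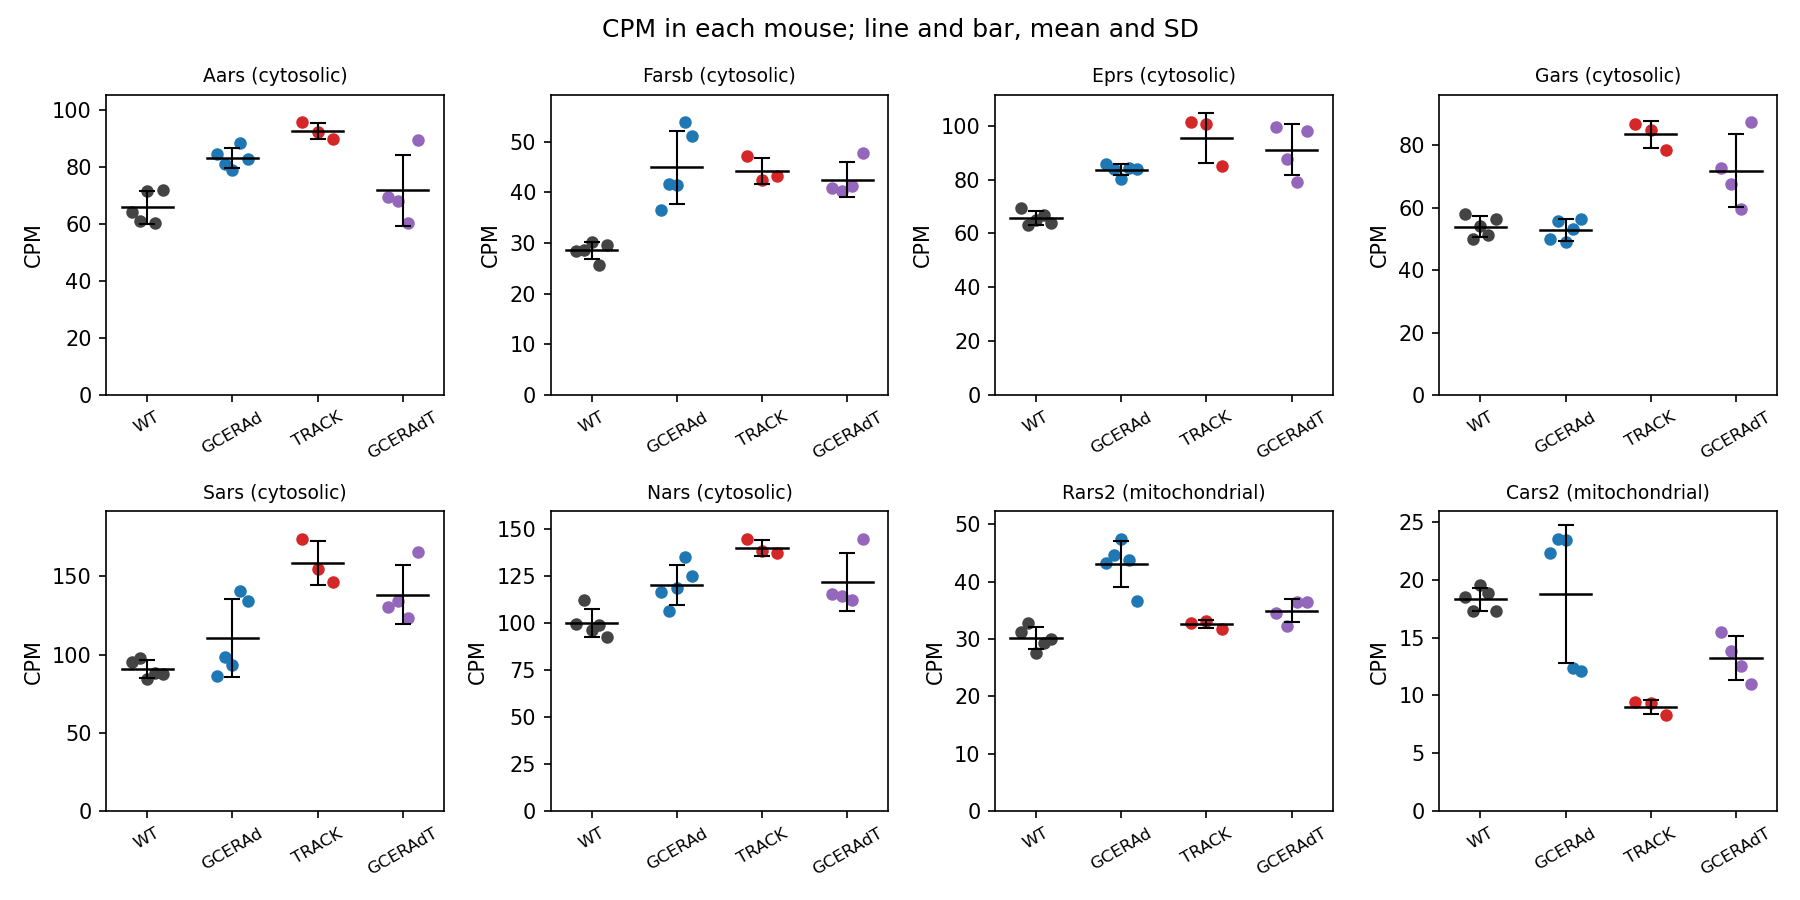
CPM of 8 synthetase genes in each mouse by group, with a line and bar for the mean and SD. All TRACK and GCERAdT mice lie above WT for Gars, Rars2 stands highest in GCERAd, and Cars2 splits GCERAd into 3 mice at 22.3 to 23.6 CPM and 2 near 12 CPM, with TRACK lowest at 8.29 to 9.42 CPM.

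The comparison of TRACK with WT asked how the kidney cancer model differs from wild type. In it 15 of the 20 cytosolic genes rose and the other 5 (Farsa, Hars, Kars, Qars, Wars) were not called, against 23.0% of all 11967 genes tested that rose and 22.6% that fell. Of the 17 mitochondrial genes 4 fell and 13 were not called, and Tarsl2 fell. The median log2 fold change was 0.39 over the cytosolic and −0.16 over the mitochondrial genes, beside −0.01 over all genes tested. The 4 endothelial markers, all detected in each group, summed to 197 to 230 CPM in WT and 345 to 394 CPM in TRACK, and their part in these changes, like that of sex, was not tested.

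Sars, the seryl-tRNA synthetase, rose most. It was 95.1, 97.9, 84.4, 88.4 and 87.4 CPM in WT and 174, 154 and 147 CPM in TRACK (0.81 ± 0.08, adjusted p = 4.45e-05, edgeR), a 1.75-fold difference. Gars was 57.9, 49.9, 54.2, 51.3 and 56.3 CPM in WT and 87.0, 85.1 and 78.6 CPM in TRACK (0.63 ± 0.07, adjusted p = 0.000113). Every TRACK mouse exceeded every WT mouse for both genes. Farsb, for phenylalanine, and Vars, for valine, each rose by 0.63 ± 0.07, as Gars did. Mars1 (methionine) rose by 0.60 ± 0.08, Cars (cysteine) by 0.60 ± 0.09, Eprs by 0.54 ± 0.08 and Aars by 0.49 ± 0.08. Mars1 shares 68 exon bases with Ddit3 on the opposite strand, and the strand setting of the counting is not given in the sources used here. The other 7 that rose (Nars, Dars, Lars, Rars, Yars, Iars and Tars) lay between 0.23 and 0.49. Among the 5 genes with a motif match, Gars and Aars thus lay above Iars (0.29 ± 0.09), Yars (0.29 ± 0.09) and Tars (0.23 ± 0.07). Kars, at 0.12 ± 0.07, was not called. All TRACK libraries and 1 WT library, mouse 2, had the upper range of pseudogene share. A fit with that range as a covariate therefore sets TRACK against WT mouse 2 alone, with the spread taken from the other libraries, and cannot adjust for the range: it called 10 cytosolic genes, all of them among the 15. The upper-range libraries alone, again with 1 WT mouse, gave 6: Aars, Farsb, Gars, Iars, Sars and Vars.

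Cars2 fell most of all synthetase genes. It was 18.5, 17.3, 19.6, 18.9 and 17.3 CPM in WT and 9.42, 9.33 and 8.29 CPM in TRACK, 0.493 of the WT level (−1.02 ± 0.09, adjusted p = 1.89e-05, edgeR), while its cytosolic counterpart Cars, at 11.2 to 14.0 CPM in WT, was at 17.8 CPM or more in all 3 TRACK mice. The call on Cars2 was kept in all 19 alternatives, and that on Cars in 18 of them. Sars2 for serine (−0.51 ± 0.13), Tars2 for threonine (−0.37 ± 0.11) and Aars2 for alanine (−0.28 ± 0.09) also fell, and against WT mouse 2 alone, the single comparator under the library covariate, they stood at −0.36 ± 0.20, −0.35 ± 0.17 and −0.16 ± 0.14 and were not called; without TRACK mouse 2 only Cars2 and Sars2 were called. For cysteine, serine, threonine and alanine the cytosolic gene was thus called higher and the mitochondrial gene lower. As a number, 4 of 17 mitochondrial genes is close to the 22.6% of all genes tested that fell. The calls on Sars2, Tars2 and Aars2 were kept in 15, 12 and 8 of 19 alternatives. Cars2 shares 422 exon bases with Naxd on the opposite strand. Tarsl2 was 15.0, 12.8, 12.4, 14.8 and 12.1 CPM in WT and 8.61, 11.0 and 11.7 CPM in TRACK (−0.36 ± 0.13, adjusted p = 0.0406), and was kept in 9 of 19 alternatives.

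**Figure D3:**
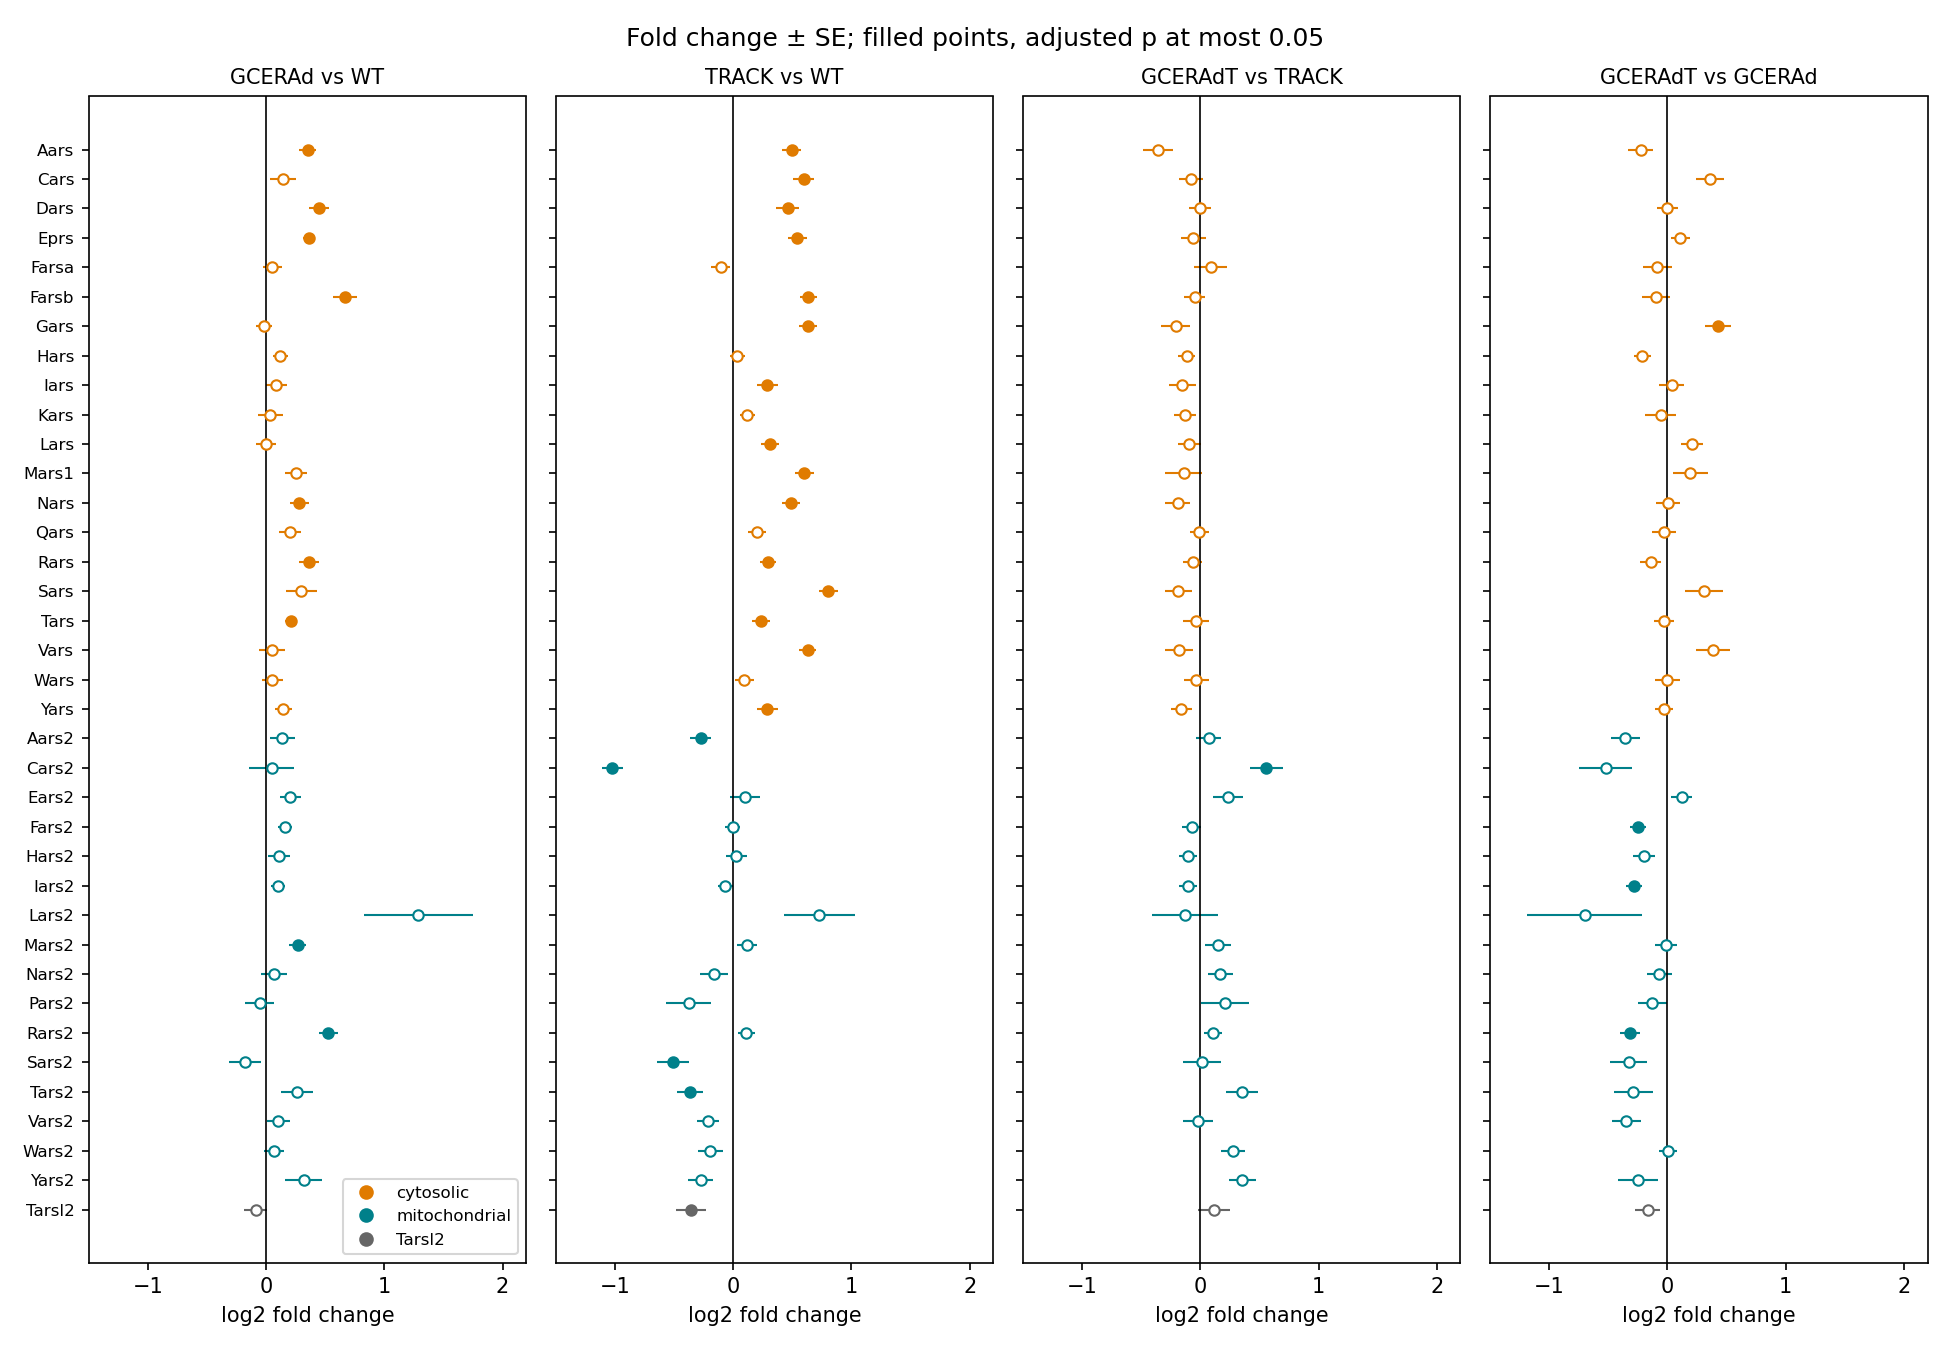
Log2 fold change with its SE for 37 synthetase genes in 4 comparisons (x axis), cytosolic genes in orange and mitochondrial genes in teal; filled points have an adjusted p of at most 0.05. TRACK against WT has 15 filled orange points right of 0 and 4 filled teal points left of 0, and GCERAdT against TRACK has Cars2 as its only filled point.

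The comparison of GCERAdT with TRACK asked what the ATF4 KO label changes within the TRACK background. Fewer genes were called here in all, with 2.81% of 11928 higher and 4.28% lower. No cytosolic synthetase was called by edgeR, 1 (Aars) had an unadjusted p of at most 0.05, and DESeq2 called 1, also Aars, as lower. The fitted values of 19 of the 20 cytosolic genes lay below 0, with a median of −0.10 beside 0.01 over all genes tested, and the median SE of a single gene was 0.10. Aars was 95.6, 92.3 and 89.9 CPM in TRACK and 69.3, 68.2, 60.2 and 89.4 CPM in the mice labelled GCERAdT (−0.36 ± 0.12, adjusted p = 0.110, edgeR). GCERAdT mouse 4 was close to TRACK and the other 3 were near the WT range of 60.4 to 72.0 CPM. Mouse 4 was also the highest of its group for Gars, at 72.8, 67.6, 59.7 and 87.4 CPM, and for Sars, at 130, 134, 123 and 166 CPM. Without that mouse Aars (−0.48 ± 0.09, adjusted p = 0.0139) and Nars (−0.29 ± 0.08, adjusted p = 0.0469) were called lower.

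Of the mitochondrial genes Cars2 was called higher in GCERAdT than in TRACK. It was 15.5, 13.8, 12.5 and 11.0 CPM in the 4 mice labelled GCERAdT, above all 3 TRACK mice and below all 5 WT mice (0.56 ± 0.14, adjusted p = 0.0403, edgeR). The call was lost when any 1 mouse other than GCERAdT mouse 4 was left out and with the library covariate, which here compares GCERAdT mice 3 and 4 with TRACK, so it rests on all of those libraries. The median over the 17 mitochondrial genes was 0.11. As the Atf4 count was not lower in these mice than in TRACK, the direction is that of the labels.

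The comparison of GCERAdT with GCERAd set the TRACK transgene against its absence in mice that both carry the ATF4 KO label. All of them showed the male pattern. Atf4 itself was higher in GCERAdT than in GCERAd (0.50 ± 0.12, adjusted p = 0.0144, edgeR on every gene with a count). These 2 groups thus differed in the Atf4 count as well as in the transgene label, and its part in the results was not tested. Gars rose among the cytosolic genes and the other 19 were not called, against 9.39% of 11816 genes that rose and 9.79% that fell. Gars was 49.9, 55.8, 48.9, 53.2 and 56.5 CPM in GCERAd and 72.8, 67.6, 59.7 and 87.4 CPM in GCERAdT (0.43 ± 0.11, adjusted p = 0.0189, edgeR), with no overlap. Of the mitochondrial genes 4 fell, among them Rars2 (−0.32 ± 0.08), Iars2 for isoleucine (−0.28 ± 0.07) and Fars2 for phenylalanine (−0.25 ± 0.07). Leaving out GCERAd mouse 2 or 3, or GCERAdT mouse 1, 2 or 3, left 1 or 2 of the 4 called. Iars2 shares 2034 exon bases with Rab3gap2 on the opposite strand. Rars2 thus was called higher in GCERAd than in WT and lower in GCERAdT than in GCERAd, 2 comparisons that share the GCERAd mice. The median was 0.00 over the cytosolic and −0.28 over the mitochondrial genes. With the mouse number as a block, which leaves out GCERAd mouse 5, 6 cytosolic genes rose (Cars, Gars, Lars, Mars1, Sars, Vars), Hars fell and 8 mitochondrial genes fell, among them Cars2 (−0.60 ± 0.13, adjusted p = 0.0139, edgeR). Within the libraries of the upper pseudogene range alone, 2 GCERAdT and 3 GCERAd mice, no synthetase gene was called by edgeR (2 cytosolic and 3 mitochondrial genes had an unadjusted p of at most 0.05), and within the lower range, 2 mice each, 3 cytosolic genes rose, Aars fell and 4 mitochondrial genes fell.

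A test of the difference asked whether the change from TRACK to GCERAdT differed from that from WT to GCERAd, with all 17 mice in 1 fit of 12208 genes. It was lower for 6 cytosolic genes and 2 of 17 mitochondrial ones, against 12.8% of all genes lower and 12.3% higher. As a number, 2 of 17 is close to that share. The 8 genes included Farsb (−0.71 ± 0.15, adjusted p = 0.00228, edgeR), Aars (−0.70 ± 0.14), Nars (−0.47 ± 0.13), Dars (−0.45 ± 0.13), Rars (−0.42 ± 0.11), Eprs (−0.42 ± 0.11) and Rars2 (−0.41 ± 0.11). All 8 had risen in GCERAd against WT. The same WT and GCERAd mice enter the difference, so that rise is not a separate result. None of the 8 was called in GCERAdT against TRACK by edgeR. Aars stood at 0.35 in the first contrast and −0.36 in the second, Farsb at 0.67 and −0.05. The same 8 genes were called without GCERAd mice 4 and 5, and without GCERAdT mouse 4 the number of cytosolic genes was 10. Since only the WT mice showed the female pattern, sex enters this difference through WT and cannot be told apart from it.

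The cytosolic and mitochondrial enzymes for the same amino acid could be compared for 14 amino acids. In TRACK against WT the log2 fold change of the cytosolic gene was above that of the mitochondrial gene in 13 of 14 pairs, with a median difference of 0.53 and leucine as the exception, for which Lars2 stood at 0.73 and Lars at 0.31. The largest differences were those for cysteine, 1.62, and serine, 1.32, and the smallest positive one was that for histidine, 0.01. In GCERAd against WT it was above in 5 of 14, with a median of −0.01, in GCERAdT against TRACK in 1 of 14 (−0.25) and in GCERAdT against GCERAd in 12 of 14 (0.24). These comparisons share groups, and genes are not independent replicates, so no test was made over the pairs.

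A ratio per mouse shows the same balance without a fit. Summed over the 20 cytosolic genes and divided by the sum over the mitochondrial genes other than Lars2, CPM gave 2.34, 2.40, 2.35, 2.37 and 2.31 in WT, 3.49, 3.40 and 3.46 in TRACK, and 2.94, 2.92, 2.84 and 3.54 in GCERAdT. In GCERAd it was 2.28, 2.21 and 2.15 in mice 1 to 3 and 2.90 and 2.79 in mice 4 and 5. GCERAd mice 1 to 3 thus lay below every WT mouse, mice 4 and 5 above every WT mouse, and GCERAdT mouse 4 above all 3 TRACK mice. Among libraries with the higher pseudogene share, WT mouse 2 (2.40), GCERAd mice 4 and 5 and GCERAdT mouse 4 were the highest of their groups, and GCERAd mouse 3 (2.15) and GCERAdT mouse 3 (2.84) the lowest of theirs; the part of that share in the ratio was not tested. The cytosolic sum ran from 930 to 984 CPM in WT and from 1237 to 1336 CPM in TRACK, and the mitochondrial sum without Lars2 from 393 to 410 and from 358 to 383 CPM, so most of the shift in TRACK was on the cytosolic side.

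**Figure D4:**
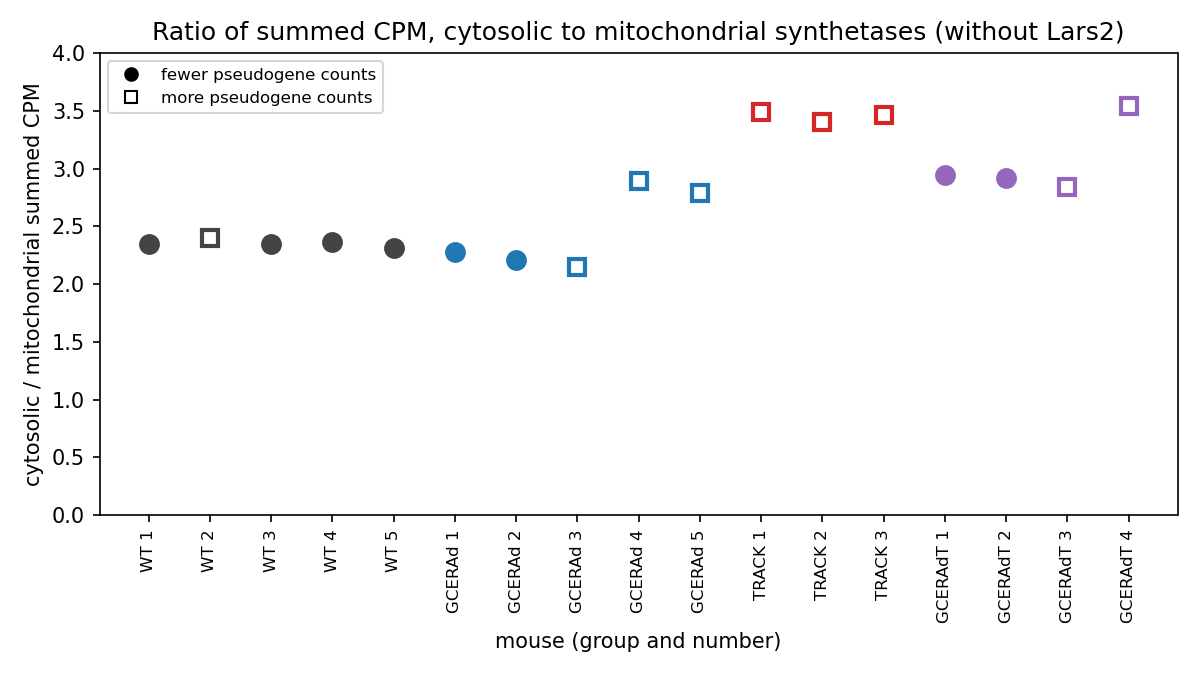
Ratio of the summed CPM of the 20 cytosolic synthetase genes to that of the mitochondrial genes without Lars2 (y axis, from 0) in each mouse; filled circles are libraries with the lower share of pseudogene counts and open squares those with the higher. WT lies at 2.31 to 2.40 and TRACK at 3.40 to 3.49, and GCERAd and GCERAdT each have mice that stand apart from their group.

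Lars2, the mitochondrial leucyl-tRNA synthetase, was left out of that sum because of its level and its spread. It was 513, 1181, 449, 501 and 438 CPM in WT and 762, 511, 1187, 3128 and 1880 CPM in GCERAd (1.29 ± 0.46, adjusted p = 0.0577, edgeR). In TRACK it was 1004, 1155 and 905 CPM and in GCERAdT 679, 528, 1300 and 1205 CPM. The 8 libraries with the lower pseudogene share lay at 438 to 762 CPM and the 9 with the higher share at 905 to 3128 CPM, in all groups, and no overlap was seen between these ranges. GCERAd mice 4 and 5, the highest for Lars2, also had the highest level of mt-Rnr1, the gene of the small mitochondrial ribosomal RNA, at 3044 and 1787 CPM, beside 659 to 1413 CPM in the other 15 mice. In TRACK against WT, where Lars2 stood at 0.73, mt-Rnr1 stood at −0.57 ± 0.11 and mt-Rnr2, for the large RNA, at −0.53 ± 0.10. Both were called lower there by edgeR on every gene with a count. In GCERAd against WT they stood at 0.43 ± 0.23 and 0.22 ± 0.24 and were not called. With every mouse in and the main filter, edgeR on 2 groups called Lars2 in none of the 4 comparisons, nor did DESeq2. Without WT mouse 2 Lars2 was higher by 1.67 ± 0.45 in GCERAd (adjusted p = 0.0199, edgeR) and by 1.11 ± 0.10 in TRACK (adjusted p = 3.78e-05, edgeR). It was also called in GCERAd against WT without GCERAd mouse 1 (1.45 ± 0.46, adjusted p = 0.0398) or mouse 2 (1.51 ± 0.41, adjusted p = 0.0225), and with all 17 mice in 1 fit (adjusted p = 0.0277). With every library kept, testing every gene with a count called it in GCERAd (adjusted p = 0.0462, edgeR) and TRACK (adjusted p = 0.0339, edgeR). So did summing WT 1 with 2 and GCERAd 2 with 3 (adjusted p = 0.0302 and 0.00784, edgeR). That these pairs share a mouse is an assumption, which the labels do not give. Without GCERAd mice 4 and 5 the change was 0.43 ± 0.35 (adjusted p = 0.392), and with the pseudogene range as a covariate it was 0.57 ± 0.25 in GCERAd (adjusted p = 0.108). The same fit in TRACK, −0.21 ± 0.14, is the difference from WT mouse 2 alone, the highest WT mouse for Lars2.

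**Figure D5:**
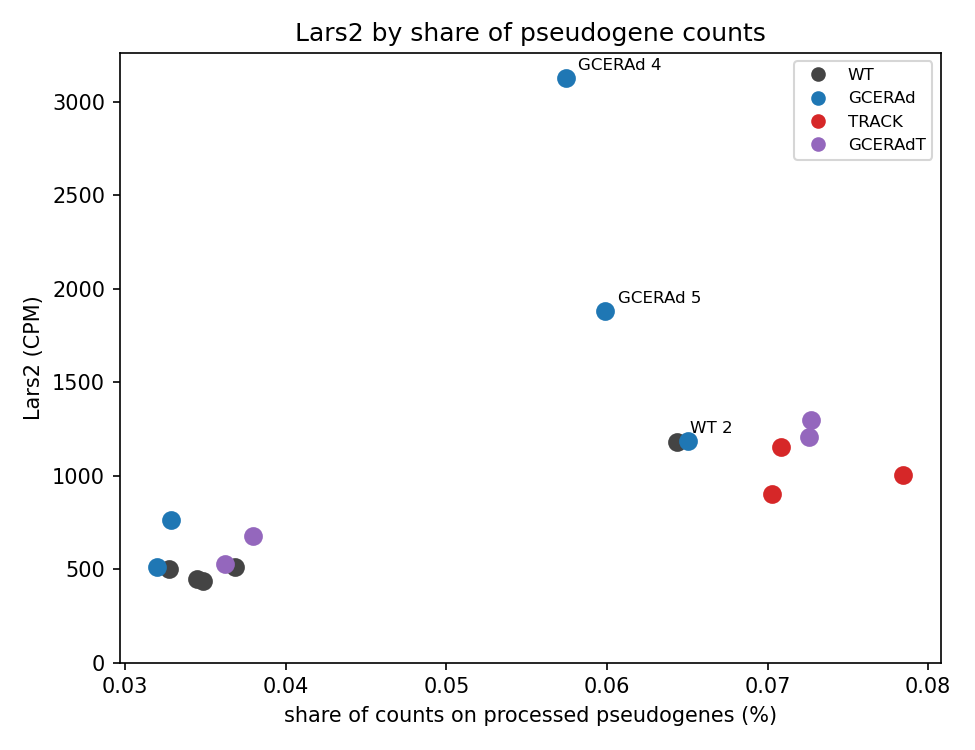
Lars2 CPM (y axis, from 0) against the share of counts on processed pseudogenes in percent (x axis), 1 point per mouse, coloured by group. The 8 libraries at up to 0.0380% lie at 438 to 762 CPM and the 9 at 0.0574% or more lie at 905 CPM or higher, with GCERAd mice 4 and 5 at the top.

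Genes that work beside the synthetases gave calls in both directions. Of all genes tested, 14.1% rose and 13.5% fell in GCERAd against WT, and 23.0% and 22.6% in TRACK against WT. In GCERAdT against GCERAd the shares were 9.39% and 9.79%. None of the 3 scaffold genes of the multisynthetase complex, Aimp1, Aimp2 and Eef1e1, was called by edgeR in any of the 4 comparisons; 1 had an unadjusted p of at most 0.05, Aimp1 in GCERAdT against GCERAd (0.27 ± 0.11, adjusted p = 0.124, edgeR). In TRACK against WT they stood at 0.04 ± 0.09, −0.04 ± 0.13 and −0.16 ± 0.11, while 6 of the 8 enzymes of the complex rose (median 0.30) and 9 of the 12 cytosolic enzymes outside it rose (median 0.49). By class, 7 of 9 cytosolic class I genes and 7 of 10 class II genes rose, so the called genes came from both. Of 12 other genes of tRNA charging and export, 11 could be tested; Xpot, the exportin for tRNAs, rose by 0.91 ± 0.08 in TRACK against WT, and Qrsl1, Dtd1 and Mtfmt fell. Xpot was 79.9 to 101 CPM in WT and 163 to 174 CPM in TRACK. In GCERAd against WT, 2 of the 11 rose, Sepsecs, which makes selenocysteinyl-tRNA (0.39 ± 0.06), and Gatb, a subunit of the mitochondrial glutamyl-tRNA amidotransferase (0.43 ± 0.06). As numbers, these 2 and the 3 that fell in TRACK against WT are close to the shares over all genes. In GCERAdT against GCERAd 3 of them fell, Sepsecs (−0.38 ± 0.06), Gatb (−0.37 ± 0.08) and its partner subunit Gatc (−0.37 ± 0.09), and Xpot rose (0.62 ± 0.08). Of the 4 genes named as mitochondrial elongation factors (Tufm, Tsfm, Gfm1 and Gfm2), Gfm1 (0.46 ± 0.06) and Gfm2 (0.50 ± 0.12) rose in GCERAd against WT. Gfm1 (−0.49 ± 0.09) and Tsfm (−0.41 ± 0.10) fell in GCERAdT against GCERAd, and Tufm fell in TRACK against WT (−0.62 ± 0.16). The list of cytosolic elongation factors had 6 genes tested, among them Eef1akmt1, a methyltransferase that is not itself such a factor. Of the 6, Eef1a1 (0.38 ± 0.08) and Eef2 (0.37 ± 0.09) rose and Eef1g fell (−0.58 ± 0.17) in TRACK against WT. Eef1b2 fell in GCERAd against WT (−0.34 ± 0.08) and rose in GCERAdT against GCERAd (0.51 ± 0.09).

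The other targets of ATF4 gave the setting for these changes. A list of 30 targets with no synthetase gene in it held 20 with a mean of at least 1 FPKM in WT, and the counts here are over these 20, because the others passed the minimum only in groups where they were higher or not at all. In GCERAd against WT 2 rose and 7 fell with a median of −0.21, against 14.1% of all genes tested that rose and 13.5% that fell. The called synthetases all rose there. Atf5 fell by 0.63 on the log2 scale there, from 18.5 to 21.7 CPM in WT to 11.4 to 13.8 CPM in GCERAd. In TRACK against WT 13 rose and 2 fell (median 0.62), against 23.0% and 22.6% of all genes tested. Among those that rose were Atf5 (1.60 ± 0.13), Ddit3 (0.77 ± 0.13) and Psat1 (0.73 ± 0.21). Asns, the asparagine synthetase, Trib3 and Chac1 were below the minimum in WT and were tested only because TRACK reached it. A rise in them was therefore favoured by the filter. They stood at 3.14 ± 0.24, 3.93 ± 0.25 and 3.57 ± 0.55 and are not counted here. In GCERAdT against TRACK 1 of the 20 rose, Stc2, and none fell, against 2.81% of all genes tested that rose and 4.28% that fell. Chac1, outside the 20, was 2.98, 3.34 and 3.53 CPM in TRACK and 1.11, 1.32, 1.59 and 1.84 CPM in GCERAdT. Its call as lower (−1.16 ± 0.29, adjusted p = 0.0436, edgeR) is not counted, since a gene can pass the minimum through 1 of the 2 groups alone. In GCERAdT against GCERAd 11 of the 20 rose, against 9.39% of all genes tested, and Atf4 itself was also higher there. The median over the 20 was 0.82, beside 0.00 over the cytosolic synthetases. Asns was 27.9, 22.4 and 16.0 CPM in TRACK and 16.5, 16.2, 16.2 and 24.6 CPM in GCERAdT, where mouse 4 was again the highest.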

How the data were processed

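The members and gene lists were chosen with earlier results of these data known. RNA of kidney cortices was sequenced in 17 stranded mRNA libraries, each labelled as 1 mouse. The authors demultiplexed with bcl2fastq 2.20, trimmed with cutadapt, aligned to GRCm38 with STAR and counted with HTSeq, and deposited raw counts per gene. The annotation release, strand setting and treatment of reads with several alignments are not given in the sources used here. Gene lengths for FPKM and exon overlaps came from GENCODE M21 (matched for 48435 of 48795 genes) and promoters from RefSeq.

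The main test was edgeR 4.0.16 (R 4.3.3, quasi-likelihood, TMM) on 2 groups at a time, on genes whose mean FPKM reached 1 in either group, with Benjamini-Hochberg adjustment over all genes tested and a threshold of 0.05. The difference between contrasts used all 17 mice. Alternatives were DESeq2 1.42.0, other scalings, filters, a joint fit, a covariate for the range of the pseudogene share, a replicate block, summed pairs of libraries and each mouse left out. The fits were checked on simulated data. No 2 libraries agreed within sampling noise (smallest ratio of chi-square to sampling, 9.44), so each counted as 1 sample; this does not show that they come from different mice. The protocol gives 3 to 4 mice per cohort.

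Mice with the same number deviated together in GCERAdT against GCERAd (correlations 0.43, 0.56, 0.52 and 0.39), where numbers 1 and 2 have the lower and 3 and 4 the higher pseudogene share in both groups. The labels do not say what a number marks. The blocked values of that comparison stand beside its results.

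Named genes were, per comparison, the called cytosolic genes with the largest change (up to 8) and called mitochondrial genes (up to 5), genes called in the difference (up to 5) or in opposite directions, the highest and lowest in WT, those with a motif, Tarsl2, Eprs, Gars, Kars, and fixed ATF4 targets, scaffold and sex-linked genes. Others, such as Xpot, Sepsecs, Stc2 and Yars2, were named after their values were seen. The values of 1 gene and 1 promoter match are not reported here, although the gene stays in every count and sum.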

Additional observations from a re-analysis of the deposited data

Results flagged for a closer look

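In 114 groups of 4 or 5 mice (38 genes in WT, GCERAd and GCERAdT), 9 had 1 mouse far from the others by Dixon's test, where chance gives about 1 in 20. GCERAdT mouse 4 was the high one for 4 cytosolic genes: Farsb at 47.8 CPM beside 40.3 to 41.2 in the other 3 mice, Lars at 47.2 beside 37.6 to 39.2, Mars1 at 60.1 beside 37.8 to 41.0, and Nars at 145 beside 112 to 115 CPM. WT mouse 2, the single WT library with the higher pseudogene share, was high for Lars2 at 1181 CPM (others 438 to 513) and Nars2 at 22.1 CPM (others 15.5 to 17.1). WT mouse 5 was low for Wars2 at 11.1 CPM (others 13.7 to 14.5). GCERAdT mouse 3 was high for Hars2 at 24.1 CPM (others 21.9 to 22.2) and GCERAdT mouse 2 for Tarsl2 at 12.6 CPM (others 10.7 to 10.9).

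The change from TRACK to GCERAdT was lower than that from WT to GCERAd in the test of the difference for 8 genes, 7 of which are given here. On the log2 scale it was −0.71 for Farsb, −0.70 for Aars, −0.47 for Nars, −0.45 for Dars, −0.42 for Rars, −0.42 for Eprs and −0.41 for Rars2. Sex cannot be told apart from the WT group in this difference, and the Atf4 count was not lower in GCERAdT than in TRACK.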

How the results depend on the processing

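No called synthetase gene changed sign under any alternative run. In GCERAd against WT the mitochondrial count of 3 became 7 without GCERAd mice 4 and 5 and 5 within the libraries of lower pseudogene share. In GCERAdT against TRACK the cytosolic count of 0 became 1 with DESeq2, with all 17 mice in 1 fit and with the replicate block, and the mitochondrial count of 1 became 0 with all 17 mice in 1 fit, the library covariate, the higher-share libraries alone or an adjusted p of at most 0.01. In TRACK against WT the higher-share libraries alone gave 6 cytosolic and 1 mitochondrial genes; the mitochondrial count of 4 was 2 with all mice in 1 fit or the library covariate and 1 with the replicate block or the stricter threshold. In GCERAdT against GCERAd the cytosolic count of 1 was 2 with DESeq2, 4 with library totals, all mice in 1 fit, the library covariate, without GCERAd mice 4 and 5 or in the lower-share libraries, 7 with the replicate block, and 0 in the higher-share libraries or at the stricter threshold. There the mitochondrial count of 4 was 1 with library totals or the stricter threshold, 2 with every gene with a count or summed pairs of libraries, 8 with the replicate block, 9 without GCERAd mice 4 and 5, and 0 in the higher-share libraries. Library totals moved the median of all genes by 0.11 in that comparison. In the difference, leaving out GCERAd mice 4 and 5 and GCERAdT mouse 4 gave 10 cytosolic genes. The motif count of 3 was 5 with the bases after the start. The causes were not tested.

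With each mouse left out, cytosolic counts ran from 6 to 8 in GCERAd against WT, 0 to 2 in GCERAdT against TRACK, 13 to 16 in TRACK against WT, 1 to 2 in GCERAdT against GCERAd and 5 to 10 in the difference. Mitochondrial counts ran from 3 to 5, 0 to 1, 2 to 6, 1 to 5 and 2 to 3. The highest cytosolic counts in GCERAdT against TRACK and in the difference came without GCERAdT mouse 4. In comparisons other than GCERAdT against GCERAd, mice with the same number share only that number (correlations from −0.61 to 0.08), and the replicate block called 7 synthetase genes higher in GCERAd against WT, 12 cytosolic genes higher in TRACK against WT, and 9 genes lower and 1 (Cars2) higher in the difference. Summing the 2 assumed pairs of libraries gave 7 cytosolic and 4 mitochondrial genes in GCERAd against WT and 16 and 5 in TRACK against WT. The ratio of chi-square to sampling was 19.9 for WT 1 with 2 and 19.7 for GCERAd 2 with 3. Other pairs were closer, such as WT 4 with 5 (11.9) and GCERAd 4 with 5 (10.9), so the ratio does not single out the summed pairs. The library covariate in TRACK against WT compares TRACK with WT mouse 2 alone. GCERAdT against TRACK could not use summed pairs, since none of its mice was in a pair. Depth did not limit detection, since every synthetase gene had at least 214 counts.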
